A study of Drosophila melanogaster and Drosophila ananassae and Drosophila pseudoobscura with 52 samples.

Results

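The comparison concerned the editing levels of D. melanogaster (D.mel) and its close relative D. simulans (D.sim) at the same exonic sites. Its members were the sites at which the deposited tables of males or of females gave a level for both species, and the level of D.mel was subtracted from that of D.sim within each sex. Of the 2380 sites in the tables, 628 had such a pair of levels in at least 1 sex. Males contributed 520 sites and females 587, and 479 sites had all 4 levels.

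Levels came from mmPCR-seq, which sequences amplicons that a microfluidic multiplex PCR makes from cDNA around selected sites. The samples were pools of whole bodies of flies about 5 days old, from UCSD stock 14021-0231.69 of D.mel and stock 14021-0251.011 of D.sim, with 2 libraries for each sex of each species, 8 libraries in all. The tables hold 1 value for each species and sex, taken here as the authors' mean of the 2 libraries, so that no level in them carries an error of its own. Each species was therefore represented by 1 stock. Males of 8 inbred D.mel lines (Drosophila Genetic Reference Panel, DGRP; lines 26, 325, 352, 441, 721, 774, 786 and 804), with 2 libraries each, gave the spread within D.mel. The stock of D. yakuba (D.yak), 14021-0261.01, served as a further species, again as 1 value per sex. At a few sites, values are also given for the more distant D. ananassae (stock 14024-0371.13), D. pseudoobscura (14011-0121.94) and D. virilis (15010-1051.09), for which a second round of sequencing was also made. No group carried a transgene or received a treatment according to the labels.

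In A-to-I editing, the enzyme ADAR deaminates adenosines in base-paired RNA to inosine, which is read as guanosine by the ribosome and in cDNA. Drosophila has a single Adar gene, and its editing is best known in transcripts of the nervous system, where it changes codons of ion channels and of proteins of synaptic release. Editing often falls on several adenosines of a paired stretch of RNA, and an adenosine a few bases from another can be edited to a very different extent. An editing level is the share of reads with G at the site. Genomic DNA was not analysed here, so that an A-to-G difference in the genome of a stock and editing cannot be told apart. Positions are those of the dm3 assembly of D.mel, and the sites were not assigned to genes, exons or UTRs here.

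The loci had been chosen as edited in D.mel, and D.sim cDNA was amplified with primers designed on the D.mel genome. Of the 628 sites, 333 were themselves the target of 1 of the 605 primer pairs listed for D.mel. The place of the others in the amplicons was not analysed here. The primer pairs around the sites on which the results below turn are given here because they define the stretch of cDNA that was compared between the species. They come from the primer list of the study, are written 5′ to 3′ and are named by the targeted site, its strand, and F for forward or R for reverse.

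2L 283707 (minus strand) F: tcgtactgcaaagttaactgaa
2L 283707 (minus strand) R: tgcgcgctcaatggaaactac
3L 2941312 (plus strand) F: tgccgaaaaggatgaaaaggat
3L 2941312 (plus strand) R: cttttcgcggcgcatct
3L 9148318 (minus strand) F: cgatgggctactaccttatac
3L 9148318 (minus strand) R: cagtagactggcaaagacca
3L 9826391 (plus strand) F: gcaatactacagcaggtgtgac
3L 9826391 (plus strand) R: tggtctccaatctaagccatac
3L 2259941 (minus strand) F: ccgcaactttggaaagctctt
3L 2259941 (minus strand) R: ttcgaattgcggcctattaact
3R 1062054 (minus strand) F: ttggtattgataaacacgtacagt
3R 1062054 (minus strand) R: agggtgcgttgaagaatt
3R 1062100 (minus strand) F: cgaacacccatactgaacaga
3R 1062100 (minus strand) R: agatacatttacgaacgtttatgc
3R 191106 (plus strand) F: ggacaccgtaatgggtttgac
3R 191106 (plus strand) R: gcttaatgatggccgtctgt
X 19107872 (plus strand) F: caccagctgaccaggaga
X 19107872 (plus strand) R: ggagctgatgatgtctggtct

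Most sites had a similar editing level in the 2 stocks, and differences of at least 20 points were mostly falls in D.sim. The loci had been chosen as edited in D.mel. At a limit of 10 points, the balance of higher and lower male sites differed with the D.mel reference. Relative to the median of the 8 DGRP lines, D.sim males were higher by at least 10 points at 34 of 361 sites and lower at 21. Relative to the D.mel stock, they were higher at 28 and lower at 26 of the same sites. Differences of 20 points were not counted against the lines. In males the median level was 8.43% in D.mel and 7.33% in D.sim, and the median difference was 0.0 percentage points, with quartiles of -2.3 and 2.81 points. D.sim was above D.mel at 257 sites, below it at 255 and equal to it at 8. In females the median levels were 3.45% and 3.1%, and the median difference was also 0.0, with quartiles of -1.2 and 1.4. D.sim was above D.mel at 285 female sites, below it at 283 and equal at 19. Across sites the levels of the species correlated with a Spearman's rho of 0.80 in males and 0.82 in females, as a description over sites that share libraries.

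The direction of change depended on its size. In males, D.sim was higher by at least 10 points at 36 sites (6.92%) and lower by at least 10 points at 44 sites (8.46%). In females, 37 sites were higher (6.3%) and 40 were lower (6.81%). At a difference of at least 20 points, 6 male sites were higher and 22 lower, and 8 female sites were higher and 24 lower. No site rose by 50 points in either sex, whereas 7 fell by at least 50 points in males and 8 in females. The largest rises were 39.4 points in males and 43.8 points in females, against lowest differences of -99.8 points in each sex.

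Part of the falls were at sites with little or no editing in D.sim, which a minimum level in both species leaves out by its construction. Over the 346 male sites at 2% or more in both species, 33 were higher in D.sim and 28 lower by at least 10 points, and the mean difference was 0.23 points, compared with -1.18 points over all male sites. Over the 310 such female sites, 34 were higher and 28 lower, with a mean difference of 0.31 points, compared with -0.99 over all female sites. At 20 points, falls were still more numerous than rises among these sites, with 12 against 5 in males and 12 against 7 in females.

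**Figure D1:**
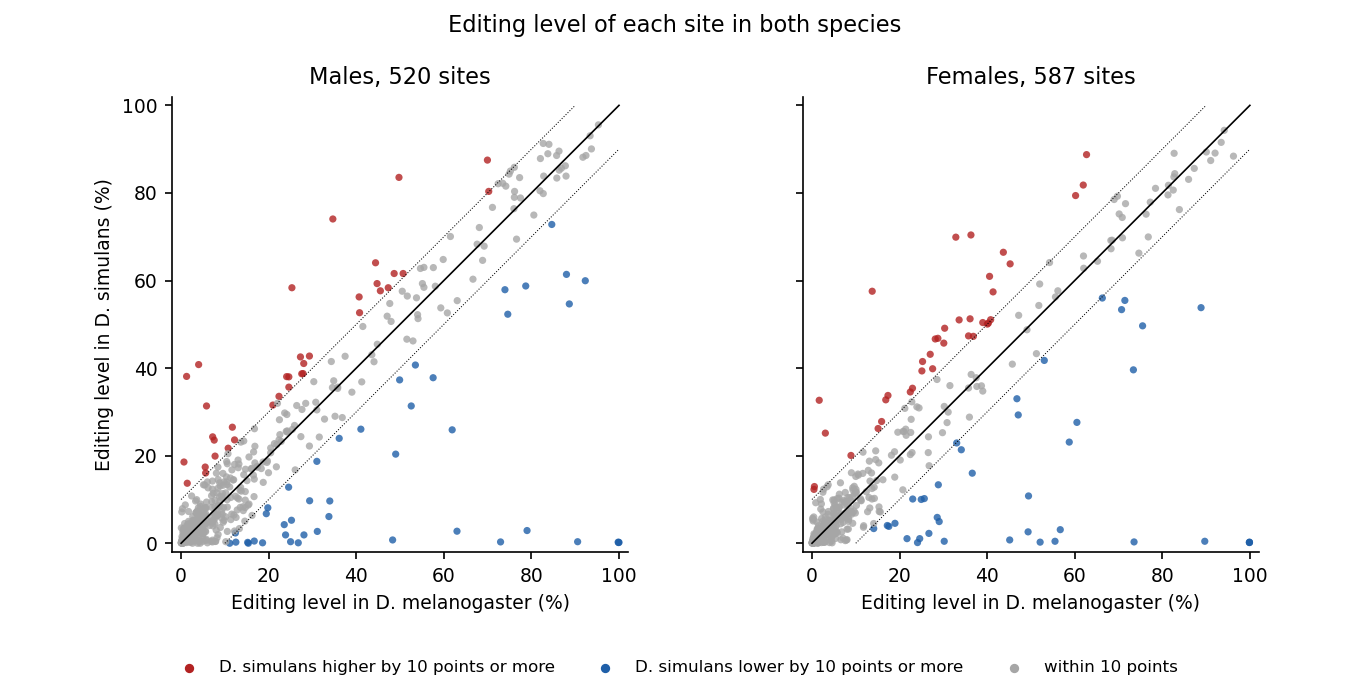
Editing level of each site in D. melanogaster (x axis, %) and in D. simulans (y axis, %), for 520 sites in males and 587 in females. Each point is 1 site and the authors' value for that species and sex; dotted lines mark 10 points on either side of equality. Points near the bottom edge at the right are sites with a high level in D. melanogaster and at or near 0% in D. simulans, and the upper left corner holds no site.

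The number of changed sites varied with the level in D.mel, and a site below 10% cannot fall by 10 points. Of the 124 male sites below 2% in D.mel, 3 were higher in D.sim by at least 10 points, as were 7 of the 157 sites from 2% to 10%. From 10% to 50% in D.mel, 23 of 162 male sites were higher and 26 lower. At 50% or more, 3 of 77 were higher and 18 lower. Females showed the same kind of split, with 29 of 124 sites higher and 23 lower from 10% to 50%, and 3 of 58 higher and 17 lower at 50% or more. A level in D.mel both sorted these sites and entered their differences, so the male sites were also sorted by the median of the 8 DGRP lines and compared with it. There D.sim was higher at 1 of 86 sites below 2% and at 9 of 106 sites from 2% to 10%, higher at 18 and lower at 11 of 117 sites from 10% to 50%, and higher at 6 and lower at 10 of 52 sites at 50% or more.

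The sexes gave 2 measurements of the species difference from separate libraries. Of the 479 sites with all 4 levels, 340 (71.0%) differed with the same sign in males and females, 115 with the opposite sign, and 24 had a difference of 0 in at least 1 sex. Among the 80 sites with a change of at least 10 points in at least 1 sex, 73 had the same sign in both. The difference in males and that in females correlated over the 479 sites with a Pearson's r of 0.87 and a Spearman's rho of 0.68. Without the 4 sites that fell by more than 85 points, r was 0.75 and rho 0.67.

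A change of at least 10 points in the same direction in both sexes was found at 35 sites. D.sim was higher at 11 of them (2.3%) and lower at 24 (5.01%). Of the 27 sites that were higher in males, 11 were also higher in females by 10 points and 25 had the same sign there, with a median difference of 14.6 points in males and 9.45 in females. Of the 38 sites that were lower in males, 24 were also lower in females by 10 points and 35 had the same sign. Their median difference was -19.95 points in males and -14.6 in females. The sites closest to the limit on the inside were 2L 2785610, with a smaller difference of 10.3 points, and 2L 6002117, with 10.8 points. The closest on the outside were 2R 20802381, with 9.75 points, and 2R 20802315, with 9.65 points.

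**Figure D2:**
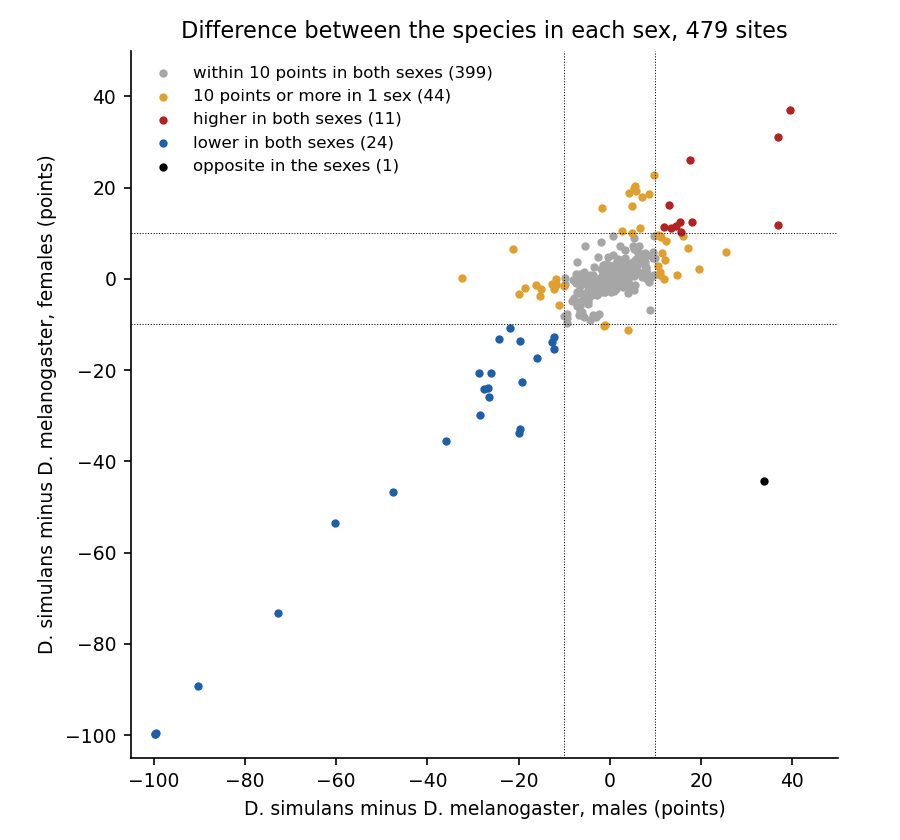
Difference in editing level, D. simulans minus D. melanogaster, in males (x axis, percentage points) and in females (y axis, percentage points) at the 479 sites with all 4 levels. Colours mark the 11 sites higher and the 24 lower in both sexes, 44 sites past 10 points in 1 sex, and 1 site with opposite changes. The lower sites extend along the diagonal to nearly -100 points, while the higher sites end below 40 points.

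The limma fit of the species effect, with sex as a covariate, asked which differences were alike in both sexes relative to the other sites. Of 393 sites tested, 8 were higher in D.sim (2.04%) and 16 lower (4.07%) at a Benjamini-Hochberg adjusted p under 0.05, or 6.11% in either direction, and 111 had an unadjusted p under 0.05. On untransformed levels the calls were 3 higher and 17 lower, so that the share of higher calls went from 33.3% to 15.0%. All 24 sites lower and all 11 sites higher in both sexes were tested, and 14 and 3 of them passed. These sites had been chosen by the same 4 values that entered the fit. Passing it, and the p-values of the species effect given for them below, are therefore no independent support. The spread in this fit is what species and sex leave over from the authors' means, and it does not hold the spread between libraries. The tests against the lines given below for rises and falls use the male values by which these sites were chosen. Their p-values are likewise a description.

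The rises are numbered here by the mean of the male and female differences. Rise 1, 3L 2941312, went from 34.7% in males and 32.9% in females of the D.mel stock to 74.1% and 69.9% in D.sim (species effect 2.29 ± 0.16 SE on the log2 odds scale, limma adjusted p = 0.033). The 8 DGRP lines, however, lay at 80.0%, 75.1%, 76.0%, 73.4%, 72.6%, 73.9%, 76.1% and 73.4% in the order given above, and D.yak lay at 78.9% in males and 72.6% in females. The D.mel stock was thus below every line, while D.sim was within their range. Against the lines, the D.mel stock differed by -2.45 on the log2 odds scale (limma adjusted p = 6.9e-05), and D.sim male differed by -0.08 (adjusted p = 0.82).

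Rise 4, 3L 9148318, had the same arrangement. It lay at 70.0% in males and 62.7% in females of the D.mel stock and at 87.5% and 88.8% in D.sim. The lines ranged from 87.3% to 90.1% with a median of 88.3%, and D.yak was at 87.3% in males and 81.2% in females. The stock was again below all 8 lines and D.sim within them. At both sites the difference between the stocks was therefore not one between D.sim and the lines.

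Rise 2, 2R 13262389, was absent or nearly so in all D.mel samples and clearly edited in D.sim. Its level was 4.0% in males and 1.65% in females of the D.mel stock, and 0.85% to 2.0% in the 8 lines, against 40.8% and 32.7% in D.sim. Neither sex of D.sim overlapped with any D.mel value. The species effect was 3.98 ± 0.21 on the log2 odds scale (limma adjusted p = 0.027). Against the lines, D.sim male stood 4.96 higher and the stock male 1.21 higher on that scale. D.yak had no level at this site, so that the state in a further species was not measured.

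Rise 3, 2L 283707, went from 1.25% in males and 0.45% in females of D.mel to 38.1% and 12.3% in D.sim, with a species effect of 4.08 ± 0.46 that missed the threshold (limma adjusted p = 0.061). Its male difference of 36.9 points exceeded the female difference of 11.9 points. Rise 5, 2R 20797983, went from 0.65% and 0.55% to 18.6% and 12.95%, with a species effect of 3.61 ± 0.22 (adjusted p = 0.029). At that site D.yak male was at 0.25%, D. pseudoobscura male at 0.0% and D. virilis at 11.4% in males and 5.15% in females. Neither rise had a level in any DGRP line.

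The remaining rises were shifts at sites already edited in D.mel. Rise 7, X 6002799, lay at 27.3% and 23.0% in males and females of D.mel and at 42.6% and 35.4% in D.sim. The lines spanned 24.3% to 31.4%, and D.sim male was above all 8 of them (0.92 on the log2 odds scale, limma adjusted p = 0.0097). Rise 6 (3R 1062051) went from 28.0% and 27.0% to 41.1% and 43.2%, and rise 8 (2R 13262562) from 44.8% and 35.8% to 59.3% and 47.4%. Rise 9 (2L 2785610), rise 10 (2R 2620585) and rise 11 (2R 4771250) had mean differences of 12.9, 12.3 and 11.7 points. At rises 9 to 11, D.sim male was above every line, but against the spread of the lines none of the 3 passed the test, with limma adjusted p-values of 0.22, 0.44 and 0.21. Of the 7 rises with all 8 lines measured, D.sim male was above the lines' range at 5 and within it at 2.

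**Figure D3:**
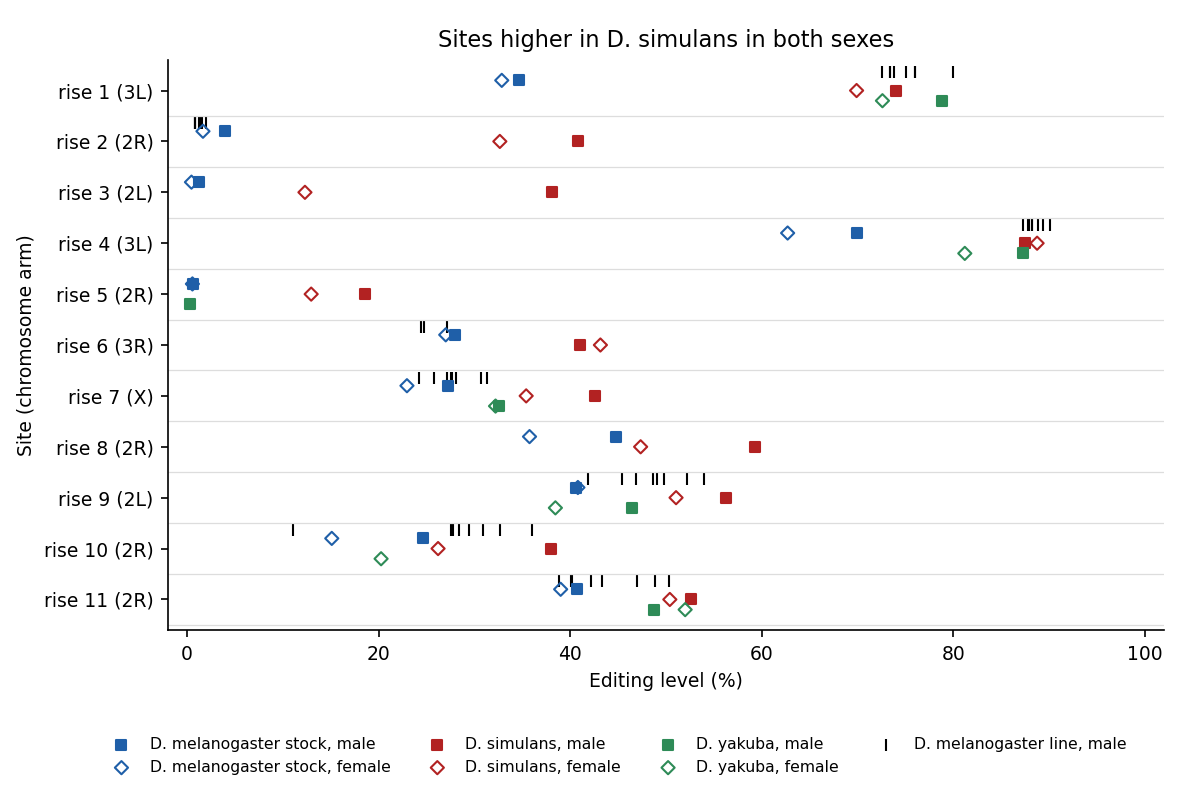
Editing level (x axis, %) at the 11 sites higher in D. simulans in both sexes, ordered by the mean difference. Filled squares are males and open diamonds females of the D. melanogaster stock (blue), D. simulans (red) and D. yakuba (green), each the authors' value; black ticks are the means of 2 libraries for each D. melanogaster line. At rises 1 and 4 the ticks coincide with D. simulans and not with the stock, and at rise 2 all D. melanogaster values lie at 4.0% or below.

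Among the falls, the first 3 were at or near 100% in D.mel and 0% in D.sim. The sites 2L 8224296 (fall 1), 3L 2259941 (fall 2) and 3R 25682017 (fall 3) had levels of 99.8% to 100% in both sexes of the D.mel stock and 0.15% to 0.25% in D.sim. D.yak lay at 0.0% to 0.15% at these sites, and no measured value in D. ananassae, D. pseudoobscura or D. virilis exceeded 0.4%. None of the 3 had a level in any line. Among the samples with a level, only the D.mel stock carried the G at these positions, and a genomic difference and editing cannot be told apart there.

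Fall 4, X 19107872, went from 90.6% and 89.7% in D.mel to 0.35% and 0.45% in D.sim (species effect -9.24 ± 0.17, limma adjusted p = 0.0038). The D.mel lines were themselves spread over a wide range. Lines 26, 352, 786 and 804 were at 92.9%, 93.3%, 90.7% and 92.1%, lines 441 and 774 at 24.0% and 24.2%, and lines 325 and 721 at 9.9% and 9.65%. All lines were above D.sim. Against this spread, D.sim male differed by -6.76 on the log2 odds scale and did not pass the test (adjusted p = 0.13).

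Fall 6, 3L 4369162, was lower in D.sim than in every D.mel sample. It lay at 63.0% and 56.7% in males and females of the stock and at 68.7% to 79.0% in the 8 lines, against 2.75% and 3.1% in D.sim. D.yak resembled D.sim, with 3.0% and 3.65%. The species effect was -5.21 ± 0.22 (limma adjusted p = 0.017), and D.sim male differed from the lines by -6.06 (adjusted p = 1.8e-07). Fall 9, 3L 4590708, was likewise below all lines, at 2.7% and 0.45% in D.sim against 31.1% and 30.2% in the stock and 22.5% to 54.1% in the lines (-3.58 against the lines, adjusted p = 0.0053). Fall 16, 3R 19808079, lay at 28.1% and 21.7% in D.mel and at 1.9% and 1.05% in D.sim, and the 7 lines with a level spanned 20.4% to 29.1%. Falls 6 and 9 had been chosen by the D.sim and stock values, so their p-values against the lines are no independent support.

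Other falls were smaller once the lines were taken into account. Fall 8, 3L 9826400, went from 61.9% and 58.8% in the stock to 25.9% and 23.1% in D.sim, but the lines lay between them, at 33.9% to 45.6%. There the stock was above the lines by 1.30 on the log2 odds scale (limma adjusted p = 0.024) and D.sim differed from them by -0.86 (adjusted p = 0.053). Fall 24, 3L 9826394, lay at 36.1% in males of the stock and 24.0% in males of D.sim, and the lines, at 7.1% to 22.4%, were below both. Fall 10 (2R 9697052) and fall 12 (2R 9704884) varied widely among the lines, from 32.7% to 79.7% and from 30% to 86.4%. Lines 804, 352 and 721 were the lowest 3 at both sites. D.sim males, at 58.8% and 61.4%, lay within these ranges, and so did the stock males at fall 10, at 78.7%, while at fall 12 they were above it, at 88.0%.

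Of the 14 falls with all 8 lines measured, D.sim male was below the lines' range at 7, above it at 1 and within it at 6. The D.mel stock male was above the lines' range at 7 of the same 14 sites, below it at 1 and within it at 6. D.yak had a level at 13 of the 24 falls in each sex and was nearer to D.sim than to D.mel at 12 of them in each. The exceptions were fall 11 (3R 20533145) in males and fall 10 in females. Over all sites with a level in all 3 species, D.yak was nearer to D.sim at 170 of 337 in males (50.4%) and at 202 of 392 in females (51.5%). At the rises, D.yak was nearer to D.sim at 3 of 6 sites in males and 4 of 6 in females. Some falls with a D.yak level share a locus, such as falls 8, 19 and 24 or falls 18 and 20, and are not separate. Falls also need a high D.mel level at loci chosen as edited in D.mel, and the share over all sites includes small differences. These counts are a description.

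**Figure D4:**
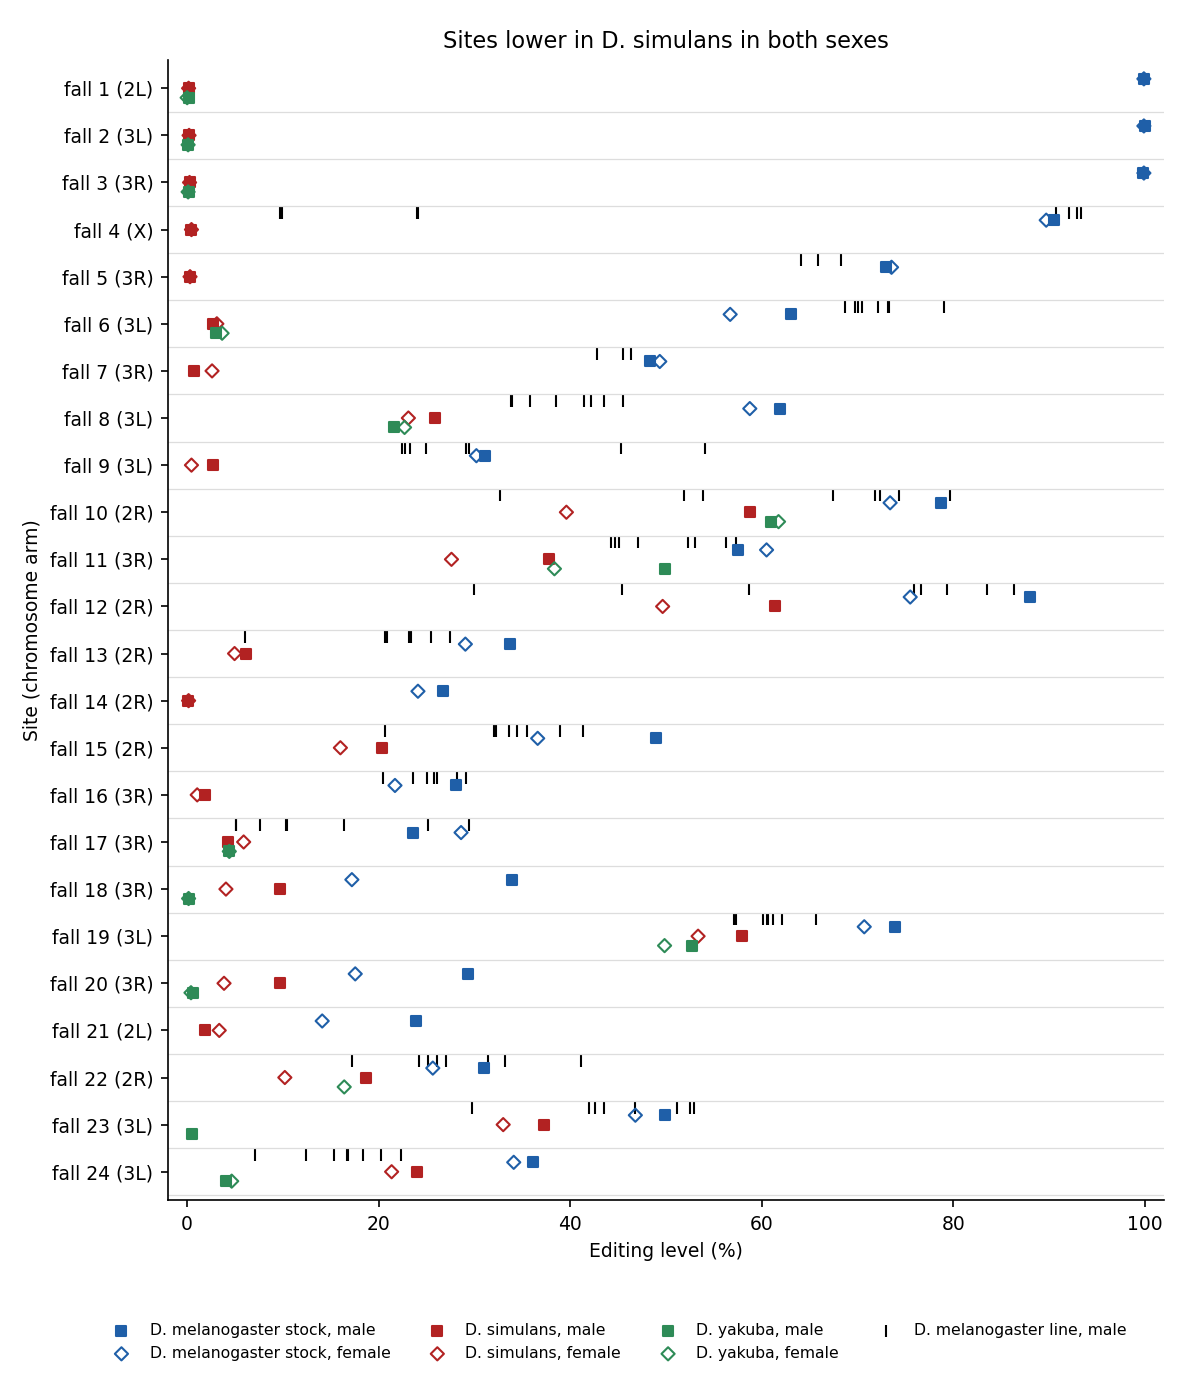
Editing level (x axis, %) at the 24 sites lower in D. simulans in both sexes, ordered by the mean difference. Filled squares are males and open diamonds females of the D. melanogaster stock (blue), D. simulans (red) and D. yakuba (green), each the authors' value; black ticks are the means of 2 libraries for each D. melanogaster line. The ticks spread widely at falls 4, 10 and 12 and stay together, far from D. simulans, at fall 6.

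Rises and falls could lie within a few bases of each other. The 35 sites fell into 25 loci when sites within 300 bp were joined, and 5 loci held 2 or more of them, 15 sites in all. At 3R 1062050 to 1062100, 5 sites were measured in all 4 samples. Fall 5, 3R 1062097, went from 73.0% and 73.6% to 0.3% in both sexes, and fall 7, 3R 1062100, from 48.3% and 49.4% to 0.75% and 2.6%. Rise 6, 3R 1062051, moved the other way, and 3R 1062054 stayed high, at 93.7% and 93.5% in D.mel and 90.1% and 91.6% in D.sim. The fifth site, 3R 1062050, went from 7.15% and 7.05% to 0.7% and 1.2%. In the 3 lines with levels (352, 721 and 774), falls 5 and 7 lay at 64.1% to 68.3% and at 42.8% to 46.3%, close to the stock. Among these 5 sites, D.sim was thus at 2.6% or below at 3, higher than D.mel at 1 and about equal to it at another.

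A second locus, 2R 13262374 to 13262563, held 2 rises and 2 falls among 10 measured sites. Fall 15, 2R 13262374, went from 49.0% and 36.6% to 20.4% and 16%, and rise 2 lay close by in the same stretch. Rise 8, 2R 13262562, was adjacent to fall 14, 2R 13262563, which went from 26.8% and 24.1% in D.mel to 0.1% and 0.15% in D.sim. Among the other 6 sites, 2R 13262546 was at 0.15% in both sexes of D.mel and at 7.15% and 5.7% in D.sim. Its species effect was 2.78 ± 0.18 (limma adjusted p = 0.030). This site was named after its values were seen, so its p-value is no independent support. At 2R 13262384, D.sim males were at 13.8% and males of the D.mel stock at 8.8%, and both were above the lines, at 1.4% to 3.9%. Against the lines, D.sim differed by 2.16 and the stock by 1.49 on the log2 odds scale. The last 4 sites were closer, such as 2R 13262558 at 3.15% and 2.6% in D.mel and 2.9% and 2.35% in D.sim. The locus at 3L 9826390 to 9826587 had 17 measured sites, of which 4 were falls and none was a rise. Its most edited site, 3L 9826469, was at 85.8% and 83.9% in D.mel and 83.4% and 76.2% in D.sim, a smaller change than at the 4 falls.

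Over all sites, neighbours moved only loosely together. Among 205 pairs of neighbouring sites at most 50 bp apart, 63.4% had mean differences of the same sign, with a Spearman's rho of 0.35. Among 41 pairs at 51 to 300 bp, 46.3% had the same sign, with a rho of 0.25. These pairs share libraries and may share amplicons, and the values are a description. A neighbour within 50 bp was present at 334 of all 479 sites (69.7%), at 10 of the 11 rises and at 17 of the 24 falls. On chromosome X, 1 rise and 1 fall occurred among 73 sites, and 2R held 5 rises and 6 falls among 132 sites, 4 of them in 1 locus. The rises and falls were 2 and 2 among 69 sites on 2L, 2 and 7 among 89 on 3L, and 1 and 8 among 109 on 3R. Over all 479 sites they were 11 and 24.

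Gains in D.sim were sites at 10% or more in at least 1 sex of D.sim and under 1.5% in every measured sex of D.mel. There were 5 of them (0.796% of 628 sites), or 3.88% of the 129 sites under 1.5% in D.mel. Losses, defined with the species exchanged, numbered 23 (3.66%), or 7.69% of the 299 sites at 10% or more in D.mel. Since the loci had been chosen as edited in D.mel, the numbers of gains and losses are not comparable as rates.

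Only 2 of the 5 gains reached 10% in both sexes of D.sim, and these are rise 3 (2L 283707) and rise 5 (2R 20797983). The third, 3R 6410574, went from 1.4% in males and 0.85% in females of D.mel to 13.7% and 9.25% in D.sim. D.yak lay at 5.05% and 2.4% there. The species effect at this gain was 2.70 ± 0.17 (limma adjusted p = 0.029). It had been chosen by the same values that entered the fit, so its p-value is no independent support. The other two, both on X, had no male level in D.mel, and females were low in both species. At X 641623 females were at 1.1% in D.mel and 2.8% in D.sim, and D.sim males were at 28.8%. At X 10640521 females were at 1.4% and 1.9%, and D.sim males were at 21.3%. The DGRP males, however, lay at 10.5% to 29.4% at that site and D.yak males at 17.2%, so that males of D.mel lines were edited there to a similar extent. Counted in males alone there were 3 gains, and counted in females alone there were 2.

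The 23 losses began with falls 2, 1, 3, 4 and 5, of which 3 were above 95% in D.mel. At 13 losses all 4 levels were measured, and at 9 D.sim had a level in 1 sex only. At several of these, D.mel reached 10% in males only, while D.sim had a level in females only. At 2L 214328, D.mel was at 22.7% in males and 2.85% in females, and D.sim females were at 0.2%. Such losses set males of D.mel against females of D.sim, and several of the losses on X are among them. The highest D.mel level of a loss had a median of 22.7%, and 9 losses lay on X, a chromosome with 101 of the 628 sites. D.yak had a level at 7 losses and was under 1.5% at 6 of them. A line level was available for 12 losses, and at 11 of these at least 1 line was at 10% or more. At the loss X 19535625, for example, the stock was at 10.2% in males and 1.25% in females, D.sim at 0.35% and 0.05%, and the lines ranged from 8.0% to 99.7%.

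A change past 10 points in 1 sex only was found at 44 sites. D.sim was higher in males only at 15 sites, at which the median D.mel level was 10.8% in males and 3.25% in females. D.sim was higher in females only at 12 sites, at which the median D.mel level was 57.5% in males and 40.4% in females. At those 12 sites the median difference was 18.3 points in females and 5.4 points in males. Of these sites, 2R 20798298 lay at 71.1% in males and 40.6% in females of D.mel, at 76.7% and 61.0% in D.sim and at 75.8% and 56.1% in D.yak. The gap between the sexes there was wider in D.mel than in the other two species. A further 3 sites of the same stretch were members of the same set (2R 20798346, 20798584 and 20798632).

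The place of D.yak was also counted within each sex. Over all sites higher in D.sim by 10 points in males, D.yak was nearer to D.mel at 15 of 20. Over those higher in females, D.yak was nearer to D.sim at 17 of 20. For lower sites, D.yak was nearer to D.sim at 19 of 22 in males and 15 of 23 in females. The difference between the sexes was not tested. Among the 14 sites lower in males only, 3R 21791365 was at 92.3% in males and 94.2% in females of D.mel and at 59.95% and 94.3% in D.sim. D.yak had 72.1% and 92.1% there, and the lines 87.6% to 93.1%, so that males of D.sim and of D.yak were both below all D.mel values and the females were not.

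Over the 479 sites the sexes themselves differed by a similar amount in the 2 species. The male level exceeded the female level by a median of 1.8 points in D.mel and 1.7 points in D.sim. In each species 67 sites were higher in males by at least 10 points, whereas 2 sites in D.mel and 3 in D.sim were higher in females. One of the latter 3, 3R 21791365, is the site just described.

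A single site, 3R 191106, changed by at least 10 points in opposite directions. It lay at 49.8% in males and 45.2% in females of D.mel, and at 83.6% in males and 0.75% in females of D.sim. The lines spanned 38.2% to 49.5%, so both D.sim values were outside the range of all D.mel males measured. The adjacent site 3R 191107 was at 93.4% and 89.95% in D.mel and at 93.1% in D.sim males, and had no level in D.sim females. D.yak females were at 24.7% at 3R 191106.

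How much the stocks would differ within a species was measured with the DGRP lines. Over the 361 sites that had male levels in D.sim, the D.mel stock and all 8 lines, D.sim and the D.mel stock were at least 10 points apart at 15.0% of sites. D.sim was that far from single lines at 16.3% to 19.7% of sites. The D.mel stock was that far from single lines at 7.76% to 13.02%, and lines were that far from each other at 3.88% to 10.8% over 28 pairs, with a median of 4.99%. The 2 libraries of 1 line were at least 10 points apart at 0.831% to 8.31% of sites, with the highest value in line 774 and 4.16% or less in the other lines. The columns of line 721, at 1.11%, carry the same sample mark and may be repeat runs of 1 sample, although the labels number them as replicates. The shares for D.sim and for the stock thus did not overlap, and every share for D.sim exceeded every share among the lines. All shares for D.sim rest on 1 male column and all those for the stock on another, so they are not separate comparisons of the species.

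**Figure D5:**
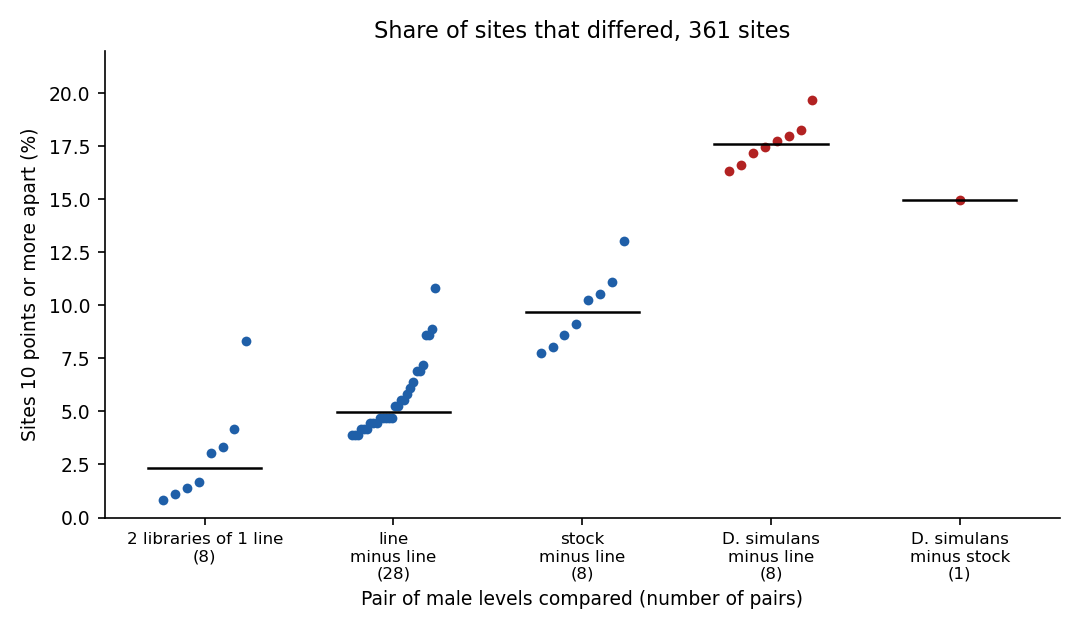
Share of 361 male sites at which 2 levels were 10 points or more apart (y axis, %), for each pair of D. melanogaster libraries, lines or stock (blue) and for D. simulans against lines or stock (red). Each point is 1 pair and black bars are medians; the stock and D. simulans are the authors' values and lines are means of 2 libraries. The points of D. simulans against the lines, at 16.3% to 19.7%, share 1 D. simulans column and lie above all points within D. melanogaster.

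The balance of higher and lower sites differed between the lines and the stock as reference. D.sim was at least 10 points above the lines' median at 34 sites and below it at 21, compared with 28 above and 26 below the D.mel stock over the same 361 sites. The stock itself was above the lines' median at 23 sites and below it at 6. The stock and the lines come from separate tables, and the species tables were averaged before deposit.

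Tested against the spread of the 8 lines with limma, D.sim males were higher at 40 of 311 sites (12.9%) and lower at 29 (9.32%), or 22.2% in either direction, with an unadjusted p under 0.05 at 114 sites. On untransformed levels the calls were 52 higher and 21 lower, so that the share of higher calls went from 58.0% to 71.2%. The D.mel stock, tested in the same way against the same lines, was higher at 21 sites (6.75%) and lower at 7 (2.25%), with an unadjusted p under 0.05 at 67. On untransformed levels these calls were 30 and 3, and without line 325 or without line 352 the lower calls were 4. The single D.sim or stock value was assumed to vary like the lines. Both tests share the lines, and the calls for the stock arose within D.mel, between the table of the species and that of the lines. Most sites called for D.sim were not called for the stock, but neither were most of all tested sites. Sites called for D.sim were called for the stock more often than the tested sites as a whole. Some were called for both in the same direction, nearly all as higher, and a few in opposite directions. A call was thus not always particular to D.sim. Over the tested sites, the median difference from the lines on the log2 odds scale was 0.14 for D.sim and 0.18 for the stock. The calls for D.sim were a median of 10.7 points above the lines' median at the higher sites and -6.15 points at the lower sites. Of the sites changed in both sexes, 7 rises and 14 falls could be tested against the lines. Among them, D.sim passed the test at rises 2 and 7 and at falls 6 and 9. The D.mel stock passed it in the opposite direction at rises 1 and 4 and at falls 8 and 19 (3L 9826401), at which D.sim did not pass. The rises and falls had been chosen by the difference between D.sim and the stock, which favours extreme values of either. The results of these tests at these sites are therefore a description.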

How the data were processed

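Editing levels of males and females of D.mel and D.sim, and of males of 8 DGRP lines, were taken from the deposited tables. According to the methods and the submitters' processing notes, the authors aligned mmPCR-seq reads with TopHat, named dm3 as the build, and quantified well covered sites; versions are not given in the sources used here. The deposited unit is a fraction from 0 to 1, which was converted to percent; no normalization across samples is described. The species values move in steps of 0.0005, as a mean of 2 values with the steps of 0.001 seen in the lines would, and are called the authors' mean. No table holds read counts, so the depth behind a level is unknown and no interval was computed. In the table of the lines, 16 positions had NA in place of the digits 200 and were restored.

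Sites were compared where both species had a level in the same sex, and a change was a difference of at least 10 percentage points. Since the species tables hold 1 value per species and sex, counts are descriptions. The sites were also fitted with limma, version 3.58.1 in R 4.3.3, on log2((level + 0.01)/(1 - level + 0.01)), at sites with a mean of at least 1% and with Benjamini-Hochberg adjustment over all sites tested (threshold 0.05). The first fit used the 4 columns with species and sex, and the second set D.sim males, or the D.mel stock males, against the 8 line means. In simulated data, shifts were 3 on this scale and every site had the same SD of 0.4. There the fits recovered 57 of 57 and 60 of 60 shifts at 386 and 308 sites, with 1 and 2 false calls. The spread of the real sites was unequal, so this recovery does not describe them. The species effect of rise 3, for example, was 4.08 ± 0.46 and missed the threshold. P-values measure only the spread between these columns or lines.

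The named sites were every gain, the 10 largest rises and 10 largest falls alike in both sexes, the 5 highest losses and the sites nearest the limit. Sites named beyond these were chosen after their values were seen. The members, lists and limits were chosen with earlier results of these data known. The lists of genes planned for the comparison were not used here, since sites were not placed in genes.

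Alternatives were limits of 5 and 20 points, other limits for presence and absence, single sexes, offsets of 0.001 and 0.05, untransformed levels, other filters on the mean level, and fits without 1 line. Python 3.11.15 with pandas 2.3.3 and matplotlib 3.10.9 was used.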

Additional observations from a re-analysis of the deposited data

Results flagged for a closer look

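The site 3R 191106 changed in opposite directions in the sexes. D.sim minus D.mel was 33.8 percentage points in males and -44.4 points in females, each from 1 value per species and sex, and the difference between the sexes was not tested.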

How the results depend on the processing

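The counts depended on the limit that defines a change. With 5 points, 91 sites were higher and 84 lower in males, 70 higher and 63 lower in females, and 36 higher and 37 lower in both sexes. With 20 points, these counts were 6 and 22, 8 and 24, and 2 and 14. Over the sites with all 4 levels, 23 were higher in females. Gains numbered 12 with presence from 5%, 3 with presence from 20%, 0 with absence under 0.5%, 9 with absence under 3%, 3 in males alone, 2 in females alone and 2 where presence was asked in every measured sex. Losses numbered 12 with presence from 20%, 15 in males alone, 12 in females alone and 10 with presence in every measured sex. On untransformed levels, the species effect was called higher at 3 sites. Against the lines, a mean level of at least 5% gave 24 higher and 19 lower calls, from fewer sites tested. Without 1 line at a time, 36 to 45 sites were higher and 26 to 32 lower. For the D.mel stock in the place of D.sim, these ranges were 15 to 24 and 4 to 7, and the offset of 0.05 gave 23 higher and 3 lower calls. Of 72 alternatives, the other 45 stayed within 1.5 times the count or within the spread between libraries of 3.54 points. The cause of the other changes was not tested. No paired analysis was possible because the columns of the species tables carry no replicate numbers.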
